A study of Mus musculus with 9 samples.

Results

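The genes of V(D)J recombination and of the pre-B receptor were followed through 9 mouse lymphomas. The set was named by function and holds 8 genes of the 18193 on the array: the recombinase genes Rag1 and Rag2, the terminal transferase gene Dntt, the surrogate light chain genes Vpreb1, Vpreb2 and Igll1, their relative Vpreb3, and the interleukin-7 (IL-7) receptor gene Il7r. All 12 probe sets that the platform annotation gives to these genes were used. Of the 8 genes, 7 had a probe set of their own, and Vpreb2 was present only on a probe set shared with Vpreb1, so its own level is not known here.

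All 9 lymphomas carried Eμ-Myc, in which the immunoglobulin heavy chain enhancer drives Myc in B cells, on a background of 94% C57BL/6. The 4 lymphomas M1 to M4 had the genotype Eμ-Myc alone, and the 5 lymphomas T1 to T5 also carried Eμ-TTP-1, a transgene for tristetraprolin, which binds AU-rich mRNAs and promotes their decay. The digit is the replicate number in the labels, which call the samples biological replicates. Age, tumour site and share of tumour cells were not given in the labels. The comparison addressed how lymphomas with and without the TTP transgene differ, and RNA of each lymphoma was hybridised to 1 Affymetrix array.

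A developing B cell builds its antigen receptor by cutting and joining gene segments. RAG1 and RAG2 together make the cuts, and terminal transferase, the product of Dntt, adds untemplated nucleotides at the joints of the heavy chain. A pre-B cell that has joined a heavy chain but no light chain pairs it with a surrogate light chain, made of VpreB (Vpreb1 or Vpreb2) and lambda5 (Igll1), and displays this pre-B receptor with the signal chains CD79A and CD79B. IL-7, read through the receptor chain encoded by Il7r, keeps pro-B and pre-B cells dividing. In normal development the surrogate light chain is shut off after the pre-B receptor has signalled, and the recombinase is expressed again for light chain joining.

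The positions below are those of RefSeq on GRCm38.p6. Rag2 lies at chr2:101624712-101632528 and Rag1 at chr2:101638252-101649532, with 5723 bases between them. Igll1 lies at chr16:16860671-16863985 and Vpreb1 at chr16:16868401-16869255, 4415 bases apart, and Vpreb2 lies on the same chromosome at chr16:17979445-17981274. Vpreb3 (chr10:75943024-75949657), Il7r (chr15:9506159-9529941) and Dntt (chr19:41029275-41059525) lie on other chromosomes. Because Vpreb1 and Igll1 were high in the same lymphomas, and Rag1 and Rag2 were lowest in the same ones, the 250 bases before a start in RefSeq's promoter table are shown for these 5 genes, from RefSeq's GRCm38.p6, 5′ to 3′ on the strand of the gene. For Vpreb2 that start lies inside the gene span given above, so its stretch does too, and the starts used for Vpreb3 and Il7r also lie inside their spans. Capitals mark matches to CAGGTG or CAGCTG, E-boxes of the kind that E2A proteins bind, and to CCCNNGGG, the core of an EBF1 site, on either strand. No 2 of these matches overlap.
Igll1 (chr16:16863986-16864235, minus strand): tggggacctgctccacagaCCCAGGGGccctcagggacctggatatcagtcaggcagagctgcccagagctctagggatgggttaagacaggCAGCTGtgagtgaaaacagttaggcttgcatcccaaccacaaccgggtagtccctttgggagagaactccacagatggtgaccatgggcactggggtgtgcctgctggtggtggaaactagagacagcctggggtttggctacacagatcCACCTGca
Vpreb1 (chr16:16869256-16869505, minus strand): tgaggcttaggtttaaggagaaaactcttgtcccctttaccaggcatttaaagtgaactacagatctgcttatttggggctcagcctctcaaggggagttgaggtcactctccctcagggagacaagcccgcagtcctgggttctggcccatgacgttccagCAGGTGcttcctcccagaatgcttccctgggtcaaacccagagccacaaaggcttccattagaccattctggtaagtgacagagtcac
Vpreb2 (chr16:17980315-17980564, plus strand): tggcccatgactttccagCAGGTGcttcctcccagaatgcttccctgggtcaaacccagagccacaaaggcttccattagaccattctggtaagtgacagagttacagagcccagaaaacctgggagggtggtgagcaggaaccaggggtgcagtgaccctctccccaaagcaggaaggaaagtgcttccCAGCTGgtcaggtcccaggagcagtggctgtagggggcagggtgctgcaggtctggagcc
Rag1 (chr2:101649533-101649782, minus strand): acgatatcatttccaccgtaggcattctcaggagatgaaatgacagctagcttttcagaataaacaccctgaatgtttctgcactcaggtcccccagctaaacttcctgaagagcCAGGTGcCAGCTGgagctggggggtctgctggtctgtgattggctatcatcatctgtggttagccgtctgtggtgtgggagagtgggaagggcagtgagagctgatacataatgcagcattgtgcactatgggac
Rag2 (chr2:101624462-101624711, plus strand): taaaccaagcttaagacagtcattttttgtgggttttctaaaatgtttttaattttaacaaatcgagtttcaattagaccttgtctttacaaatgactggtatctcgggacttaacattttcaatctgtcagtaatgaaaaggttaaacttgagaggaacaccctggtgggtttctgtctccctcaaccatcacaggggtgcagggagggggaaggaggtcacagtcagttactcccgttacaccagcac

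The Igll1 stretch holds 1 EBF1 core and 2 E-boxes, the Vpreb1 stretch 1 E-box, the Vpreb2 stretch 2 and the Rag1 stretch 2, while the Rag2 stretch has no match to these letters. Of all 32851 promoter stretches of this length, 27.7% held an E-box and 11.8% an EBF1 core. The stretch of Vpreb3 holds 1 octamer, ATTTGCAT, a motif present in 1.60% of the stretches, and those of Dntt and Il7r match none of the motifs searched. A match is a run of letters and not a measured binding site. The motifs were kept from a wider search of these promoters, so the shares do not test the matches. When the 50 bases after each start were included, 156 bases aligned between Vpreb1 and Vpreb2 without a gap and 153 of them, or 98.1%, were identical, with the start used for Vpreb2 lying further downstream.

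The values are intensities made by the authors with GCRMA, given here as log2. An intensity of 16, a log2 value of 4, served as the limit under which a probe set was taken as near background, and a gene was tested between genotypes if it passed 4 in at least 4 of the 9 arrays. Levels of different genes cannot be compared on this scale, since each probe set has its own response. In bulk tumours, fewer cells with an mRNA and less of it per cell cannot be told apart. Median intensities of the arrays ran from 12.2 to 13.4, and precision is limited by there being 9 arrays.

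**Figure D1:**
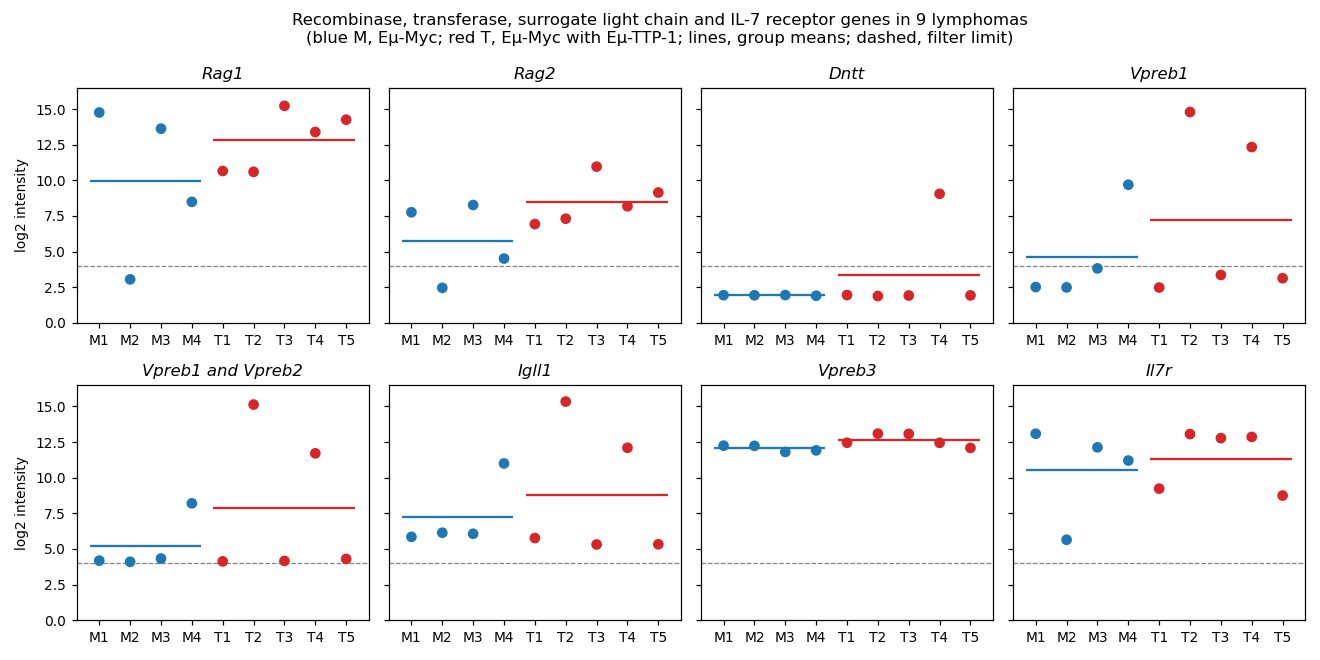
Log2 intensity of each gene in each lymphoma, with 1 point per array, Eμ-Myc (M1 to M4) in blue and Eμ-Myc with Eμ-TTP-1 (T1 to T5) in red; horizontal lines are group means and the dashed line is the limit of 4. Vpreb1, its probe set shared with Vpreb2 and Igll1 are high in M4, T2 and T4, Dntt is over the limit in T4 alone, and Rag1 and Rag2 are lowest in M2.

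Both recombinase genes varied widely between lymphomas. Rag1 read 14.76, 3.05, 13.63 and 8.49 in M1 to M4, and 10.66, 10.59, 15.23, 13.39 and 14.26 in T1 to T5. M2 was at background and M4 was the next lowest, while T3, M1 and T5 were the highest, so that the genotypes overlapped. The SD of Rag1 over the 9 arrays was 3.91, against a median of 0.36 for the 10172 genes tested, and only 0.0590% of those genes had a larger one.

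Rag2 shared its highest lymphoma, T3, and its lowest, M2 and M4, with Rag1. M1 lay above T5, M3 and T4 for Rag1 but below them for Rag2. Its values were 7.76, 2.45, 8.27 and 4.51 in M1 to M4 and 6.93, 7.31, 10.96, 8.18 and 9.14 in T1 to T5. M2 was again at background, M4 was again the next lowest at just over the limit, and T3 and T5 were the highest. Rag1 was over the limit in 8 lymphomas and Rag2 in the same 8. Between Rag1 and Rag2 the root mean square difference over the 9 arrays, after each gene's median was taken off, was 2.15 log2 units. On the same measure Rag2 lay 2.20 from Il7r and 2.32 from Vpreb3, and the median distance of all tested genes to Rag2 was 2.44. The measure is not scaled to the spread of each gene, so a nearly flat gene can have such a distance without sharing a pattern. Vpreb3 varied little, with an SD of 0.46 over the 9 arrays, so its distance is no sign of likeness to Rag2. The 2.15 between Rag1 and Rag2 also includes their difference in spread. Rag1 lay 2.68 from Il7r, 7.54 from Vpreb1 and 6.71 from Igll1. Values under the limit entered these distances.

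The transcripts beside the recombinase genes were read as well. Iftap, the coding gene next to Rag2 on the side away from Rag1, read 9.44, 4.01, 8.48 and 4.26 in M1 to M4 and 6.76, 5.30, 8.81, 8.14 and 8.94 in T1 to T5. Iftap was lowest in M2, M4 and T2, the lymphomas lowest in Rag1. T1, with nearly the same Rag1 as T2 (10.66 and 10.59), had the higher Iftap of these 2. Iftap was the third nearest to Rag1 among all tested genes that are not members, with a root mean square difference of 2.18 log2 units. Traf6, the coding gene on the other side of Rag1 and an adaptor of NF-kB signalling, stayed between 8.28 and 9.34. The median of the 785 other tested genes of chromosome 2 deviated by -0.07 to 0.01 from its level over the 9 arrays.

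Dntt was over the limit in a single lymphoma. The probe set with the highest mean read 9.05 in T4 and 1.88 to 1.95 in the other 8 arrays. A second probe set, whose probes may bind further mRNAs (the _x_at class), gave 8.59 in T4 and 1.91 to 1.98 elsewhere, and the last gave 3.99 in T4 and 2.36 to 2.49 elsewhere, so T4 was the highest on each of the 3. T4 was also the sole lymphoma in which all 7 genes with a probe set of their own exceeded the limit. The coding neighbours of Dntt were not high in T4: Blnk, an adaptor of the pre-B receptor, read 13.23 there against 12.70 to 13.60 elsewhere, and Opalin lay between 2.79 and 2.88 in all 9.

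The surrogate light chain genes were high in the same 3 lymphomas and low in the other 6, where Vpreb1 was under the limit of 4 and Igll1 was above it. Vpreb1 read 9.69 in M4, 14.79 in T2 and 12.33 in T4, against 2.51, 2.48 and 3.82 in M1, M2 and M3 and 2.48, 3.36 and 3.13 in T1, T3 and T5. No lymphoma lay between 3.82 and 9.69. Low values of GCRMA are poorly determined, so a fold between the high and the low lymphomas is not given.

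The probe set shared by Vpreb1 and Vpreb2 gave the same 3 lymphomas, with 8.20 in M4, 15.13 in T2 and 11.71 in T4 and with 4.09 to 4.33 in the other 6. The difference between the Vpreb1 probe set and the shared one ran from -1.67 to 1.49, and it was above 0 in M4 and T4 and below 0 in T2. How much of the shared signal is Vpreb2 was not tested.

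Igll1 followed Vpreb1. Its brighter probe set read 11.00 in M4, 15.34 in T2 and 12.10 in T4, and 5.31 to 6.14 in the other 6 lymphomas, with a gap of 4.86 between them. T2 was the highest of all 9 for both genes, T4 the second and M4 the third. The root mean square difference between Vpreb1 and Igll1 was 1.41, the smallest of any pair among the 7 genes. The second Igll1 probe set stayed under the limit in every lymphoma, at 2.19 to 3.19, also in T2 where the first was at 15.34. The Igll1 values therefore rest on a single probe set whose probes may bind further mRNAs.

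**Figure D2:**
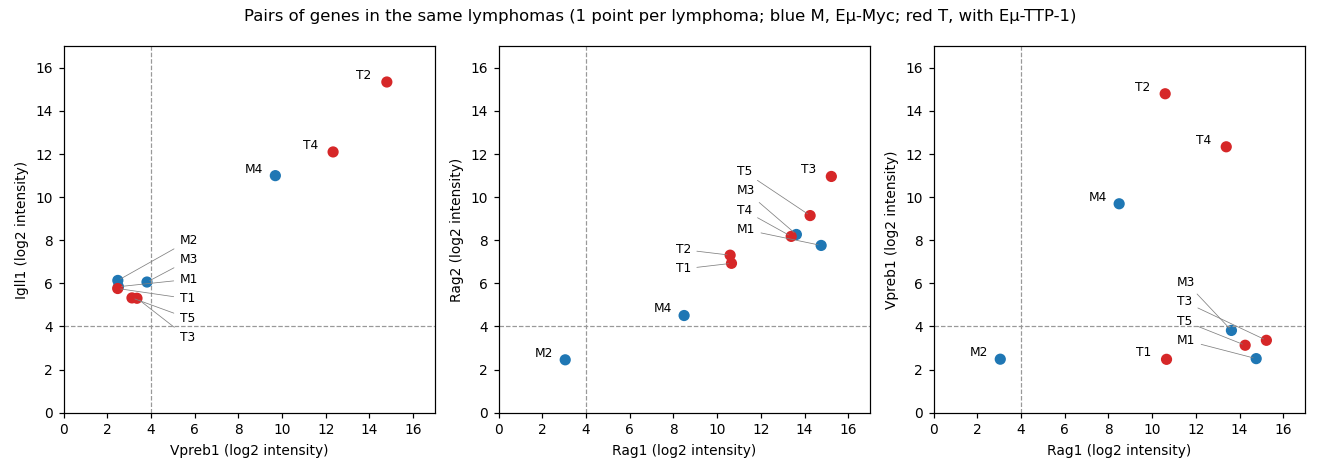
Pairs of genes in the same 9 lymphomas, log2 intensity on both axes, 1 labelled point per lymphoma, with dashed lines at the limit of 4. Vpreb1 and Igll1 are high in M4, T2 and T4 together, Rag1 and Rag2 are lowest in M2 and M4 together, and the lymphomas with the highest Rag1 (T3, M1 and T5) have Vpreb1 under the limit.

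The order of the lymphomas differed between the recombinase and the surrogate light chain. T3, M1 and T5, the highest for Rag1 at 14.26 to 15.23, read 2.51 to 3.36 for Vpreb1. T2, the highest for Vpreb1, read 10.59 for Rag1, and M4 read 8.49. T4 had high values of both, with Rag1 at 13.39 and Vpreb1 at 12.33, and M2 had neither, with 3.05 and 2.48. M3, with Rag1 at 13.63, came closest to the limit for Vpreb1 from below, at 3.82. These are descriptions of 9 tumours, and no test was made of the pairs.

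The gene beside Vpreb1 was higher in the same 3 lymphomas. Top3b, a topoisomerase gene on the side of Vpreb1 away from Igll1, read 10.10 in M4, 10.15 in T2 and 9.59 in T4. In the other 6 lymphomas it read 8.43 to 9.12. Igll1, Vpreb1 and Top3b share a chromosome whose median over 332 other tested genes was 0.50 log2 units higher in M4 and 0 in T2 and T4. The part of that shift in the M4 values was not tested. The coding genes on either side of Vpreb2, Slc25a1 (a mitochondrial citrate carrier) and Dgcr6, were highest in T2 at 11.73 and 11.35, against 8.83 to 9.83 and 9.26 to 10.87 elsewhere.

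Vpreb3 behaved unlike its relatives. It encodes a protein of B lineage cells that is related to VpreB but is not a part of the surrogate light chain. It read 12.24, 12.23, 11.80 and 11.91 in M1 to M4 and 12.45, 13.09, 13.07, 12.44 and 12.09 in T1 to T5. All 9 lymphomas were high and the whole range was 1.29 log2 units. Its SD of 0.46 was close to the median of all tested genes, with 38.0% of them larger. T5 lay below M1 and M2, so the genotypes overlapped.

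Il7r was high in most lymphomas and low in M2. Its first probe set read 13.08, 5.64, 12.13 and 11.20 in M1 to M4 and 9.23, 13.06, 12.78, 12.86 and 8.74 in T1 to T5. M2 was 3.10 log2 units below the next lymphoma, T5 and T1 formed an intermediate level, and the other 6 lay between 11.20 and 13.08. The second probe set read 4.57 in M2 and 8.08 to 12.67 elsewhere, and the 2 differed by 0.41 to 1.08 in each array. M2 was thus the lowest lymphoma for Rag1, Rag2 and Il7r. T2, low in Rag1 relative to most, was the second highest for Il7r.

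The coding neighbour Capsl read 8.49 in M1, 7.73 in T3 and 7.45 in T4, which were among the 4 highest for Il7r, and 3.41 to 4.08 in the other 6 lymphomas, T2 included. Chromosome 15, which holds Il7r, had a median 0.21 higher in T3 and within 0.084 of its usual level in the others. Spef2, on the other side of Il7r, did not pass the filter and ranged from 3.39 to 5.52.

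No gene of the set passed the test between the genotypes. Of the 7 genes with a probe set of their own, 5 passed the filter and were tested with limma among 10172 genes, and 0 had a Benjamini-Hochberg adjusted p under 0.05, where the share called among all genes was also 0%. Without M3 there were 8 genes called and without M4 there was 1, none of them in the set. At an unadjusted p under 0.05 there was 1 of the 5, Vpreb3, against 5.67% of all genes. The groups overlapped for each of the 5, and over all genes 1.64% did not overlap. All 5 means were higher in the double-transgenic lymphomas, as were 58.9% of the genes tested. The median difference of the 5 was 1.51, and that of all genes was 0.05. The 1.51 is the value of Igll1, which became -0.14 without T2. Rag1, Rag2, Igll1 and Il7r were among the most variable genes tested, with 0.059% to 1.19% of genes having a larger SD. Since Vpreb1 was over the limit in 3 lymphomas and Dntt in 1, neither was tested.

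Rag1 averaged 9.98 ± 5.37 over M1 to M4 (SD, n = 4) and 12.82 ± 2.11 over T1 to T5 (SD, n = 5). T minus M, in log2 units, came to 2.84 (SE 2.33, limma adjusted p = 0.882; exact permutation p = 0.341, two-sided). It was 0.53 when M2 was left out. Rag2 averaged 5.75 ± 2.76 and 8.50 ± 1.62. Its T minus M value was 2.76, with limits of -0.23 and 5.75 at 95% confidence (exact permutation p = 0.119, two-sided), and 1.66 without M2.

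Igll1 averaged 7.26 ± 2.49 over M1 to M4 (SD, n = 4) and 8.77 ± 4.67 over T1 to T5 (SD, n = 5). Its T minus M value of 1.51 had 95% limits of -3.82 and 6.83 (exact permutation p = 0.611, two-sided) and became -0.14 when T2 was left out. For Il7r, with 10.51 ± 3.34 and 11.33 ± 2.15, T minus M was 0.82 with 95% limits of -2.91 and 4.56 (exact permutation p = 0.706, two-sided), and it turned to -0.80 without M2. The limma adjusted p was 0.950 for Igll1 and 0.966 for Il7r, and 0.858 for Rag2.

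Vpreb3, the least variable, averaged 12.05 ± 0.22 over M1 to M4 (SD, n = 4) and 12.63 ± 0.44 over T1 to T5 (SD, n = 5). The difference of 0.58 had an SE of 0.23, a limma adjusted p of 0.845 and an exact permutation p of 0.0635 (two-sided; the smallest that 126 splits allow is 0.00794). It stayed between 0.47 and 0.72 when each lymphoma was left out in turn. Group means of Vpreb1 and Dntt are not compared, since most of their values lay under the limit.

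**Figure D3:**
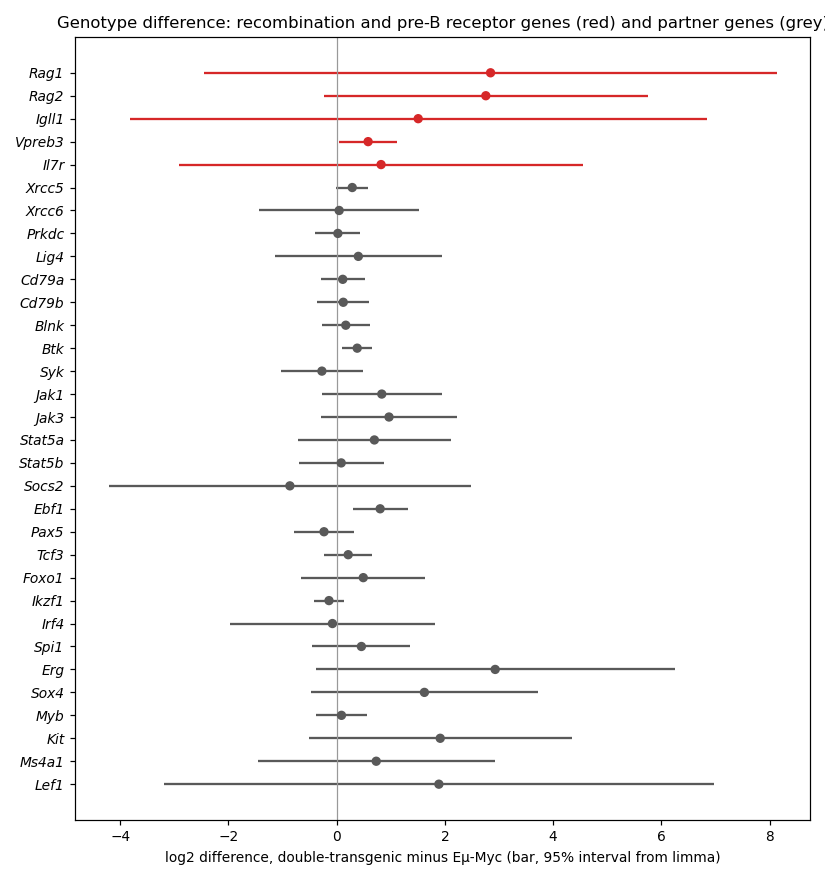
Log2 difference between double-transgenic and Eμ-Myc lymphomas, with 95% intervals from limma, for the 5 tested genes of the set (red) and 27 tested partner genes (grey). The intervals of Rag1, Rag2, Igll1 and Il7r are wide and include 0, and that of Vpreb3 runs from 0.047 to 1.11 before any adjustment.

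Genes of the enzymes that join the cut ends were followed beside the recombinase. Of 13 listed genes of the joining pathway, 11 were named on the array and 10 tested. In T1 to T5 the mean was higher for 9 and lower for 1, 0 passed limma (background 0%) and the median difference was 0.24, beside 0.05 for all genes. Xrcc5 (Ku80) read 9.64 to 10.32 over the 9 lymphomas and Prkdc, the kinase of end joining, 9.45 to 10.30. Xrcc6 (Ku70) ranged wider, from 10.57 in M3 to 13.29 in M1, with T3 and T4 also at 12.70 and 12.63. Lig4, the ligase of this pathway, was lowest in M3 at 7.48 and ran from 8.95 to 10.84 in the others. Polm, a polymerase of end joining, named after its values were seen, read 3.34 in T2 and 6.02 to 10.09 elsewhere. In M2, where Rag1 and Rag2 were at background, Xrcc5, Prkdc, Xrcc6 and Lig4 read 9.64, 9.45, 10.92 and 9.74.

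The signal chains of the pre-B receptor were high in every lymphoma. Cd79a read 13.24 to 14.06 and Cd79b 14.37 to 15.30, as defining markers of B lineage cells. Blnk read 12.70 to 13.60 and the kinase gene Syk 11.11 to 12.86. In M2, where Rag1 and Rag2 were at background, Cd79a was at 13.96 and Cd79b at 14.98. Of 11 tested genes of this list, 8 were higher and 3 lower in the double-transgenic group, 0 passed limma and the median difference was 0.17. Btk, the kinase downstream of the receptor, had a difference of 0.38 (SE 0.12, limma adjusted p = 0.845). Its 4 Eμ-Myc values, 11.25 to 11.65, lay below its 5 double-transgenic values, the lowest of which was 11.70, a separation seen in 1.64% of all genes.

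Among IL-7 signalling genes, Cish and Socs2 were high in some lymphomas and low in others. The IL-7 receptor signals through JAK1 and JAK3 to STAT5, which induces Cish and members of the SOCS family. Cish read 9.03 in T2 and 2.21 to 2.45 in the other 8. Socs2 read 12.74 in M4, 11.78 in T4, 11.14 in M2 and 11.09 in T2, and 6.81 to 7.82 in the other 5. It was thus high in the 3 lymphomas with the surrogate light chain and also in M2, which had neither the surrogate light chain nor more than 5.64 of Il7r.

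Stat5a was highest in T2 at 11.02 and T4 at 9.67, against 7.89 to 8.84 elsewhere, and Stat5b was highest in T2 at 11.81 but M2, at 11.41, came next. Jak1 was highest in T2 at 14.33 and ran from 11.64 to 13.27 in the others, and Jak3 likewise, with 7.81 against 4.55 to 6.67. Of 10 tested genes of the list, 5 had the higher mean in T1 to T5 and 5 in M1 to M4, 0 passed limma, and the median difference was 0.02. The ligand genes Il7 and Tslp, and Socs1, were under the limit in all 9.

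**Figure D4:**
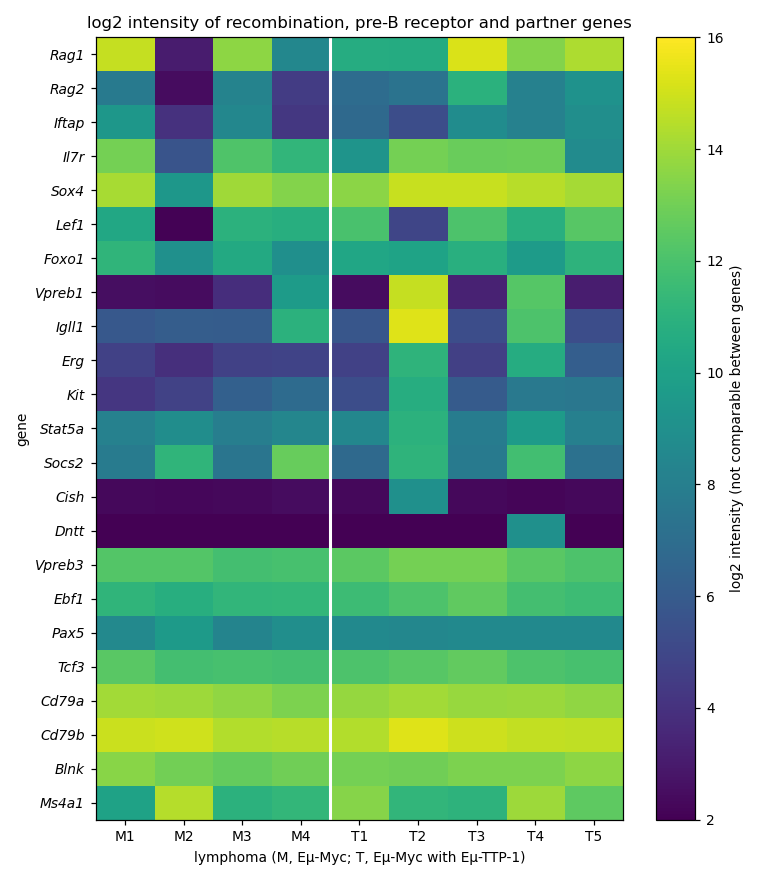
Log2 intensity of genes of the set and of selected partner genes in each lymphoma, with colour from 2 (dark) to 16 (bright); colours compare lymphomas within a gene, not genes with each other. Lef1 and Sox4 are lowest in M2 with Rag1, Rag2 and Il7r, Erg is high in T2 and T4, Cish in T2, and Cd79a, Cd79b and Blnk are bright in every column.

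The transcription factors that open the early B cell programme were present in all lymphomas. Ebf1 and the E2A gene Tcf3 act on the surrogate light chain genes, and Pax5 commits cells to the B lineage. Tcf3 read 11.82 to 12.65 and Ikzf1 (Ikaros) 12.38 to 12.81. Pax5 read 8.32 to 9.65, with M2 the highest and with T1, T3, T4 and T5 at the same 8.66, a tie in the deposited values. Ebf1 read 11.16, 10.80, 11.24 and 11.27 in M1 to M4 and 11.58, 12.08, 12.57, 11.81 and 11.58 in T1 to T5. All 5 double-transgenic values lay above the 4 Eμ-Myc values, and the difference was 0.80 (SE 0.22, limma adjusted p = 0.845). Ebf1 and Btk were the 2 of 27 tested named partner genes whose groups did not overlap, where 1.64% of all genes did not.

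Ebf1 did not mark the lymphomas with the surrogate light chain, since T3 was the highest at 12.57 with Vpreb1 at 3.36. Foxo1, a factor that activates the recombinase genes in B cell precursors, was lowest in M4 at 8.96 and M2 at 9.03, the lymphomas lowest in Rag1. In the others it ran from 9.69 to 11.17. The 9.69 was in T4, where Rag1 was at 13.39. T2 and T1, with Rag1 at 10.59 and 10.66, read 10.13 and 10.30 for Foxo1. Irf4 was lowest in T2 at 8.39 and ran from 10.07 to 12.59 in the others. Spi1 (PU.1) was highest in T2 at 11.99, against 9.85 to 10.57. Over the 20 genes of this list, all tested, 12 were higher and 8 lower, 0 passed limma, and the median difference was 0.15.

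Other genes of precursor cells separated single lymphomas. Lef1, a partner of WNT signalling active in pro-B cells, read 2.06 in M2 and 4.90 in T2, against 10.38 to 12.39 in the other 7. Sox4 read 9.41 in M2 and 13.39 to 14.84 elsewhere. Erg, an ETS factor of progenitors, read 11.08 in T2 and 10.66 in T4, 6.16 in T5 and 3.90 to 4.79 in the rest, M4 included. Kit, the stem cell factor receptor, was highest in T2 at 10.73, with 4.24 to 7.65 in the others. Of the 13 listed markers of precursor B cells outside the set, 10 were tested, of which 8 were higher and 2 lower with 0 called and a median difference of 0.08.

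Ms4a1 (CD20), which rises as B cells mature, was highest in M2 at 14.47, the lymphoma lowest in Rag1, Rag2 and Il7r. T4 was next at 13.92 although it carried Dntt, Vpreb1 and Rag1 together. M1 was the lowest at 10.08. Other markers of mature B cells went both ways in M2. Tnfrsf13c and S1pr1 were the highest of the 9 there, at 12.10 and 9.93. Cxcr5 was the lowest of the 9 there, at 3.54, and Cr2 read 3.25, within its range of 2.81 to 10.43. Tnfrsf13c, S1pr1, Cxcr5 and Cr2 were named after their values were seen. The mean log2 value over the 14 tested markers of mature B cells was lowest in T2, at 6.81. It was 8.77 in M2 and 8.29 to 9.33 over the lymphomas other than T2. Of the 14, 7 had the higher mean in T1 to T5 and 7 in M1 to M4, 0 passed limma and the median difference was -0.06.

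The genes nearest in pattern, by unscaled root mean square difference over the 9 arrays among tested genes outside the set, were picked by rank. For Rag2 they were Ipcef1 (0.89), Pter (1.01) and Hacd1 (1.07), beside a median of 2.44 over all genes. For Rag1 they were Col27a1 (1.84), Gm8369 (2.15) and Iftap (2.18), beside a median of 4.13. For Il7r they were Stat4 (0.97), St3gal6 (1.18) and Sox4 (1.53), beside 2.73. For Igll1 they were Tnfsf10 (1.56), which encodes the death ligand TRAIL, the WNT modulator Sfrp2 (1.87) and Erg (2.06), beside 4.06. Tnfsf10 read 10.90 in T2, 9.27 in T4 and 5.25 in M4, with 3.04 to 4.11 in the other 6. Sfrp2 read 10.30 in M4, 9.18 in T2 and 7.74 in T4, but also 6.54 in M3. Stat4 read 2.71 in M2, as Il7r was lowest there.

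Markers of other cell types moved with some of these lymphomas. T cell precursors also use RAG, Dntt and the IL-7 receptor. Of the 15 T cell markers, 13 were on the array and 5 (Cd3e, Cd5, Trat1, Ptcra and Themis) were under the limit in every lymphoma, with Cd3e at 2.75 to 3.43. The log2 of the summed T cell intensities was 7.63 to 10.49 in M1 to M4 and 8.40 to 11.84 in T1 to T5, with the highest in T2 and the second in M4, both of which had the surrogate light chain. In T2 this came mainly from Bcl11b at 11.12 and Thy1 at 9.73, with Lat at 8.99. Cd3d, Cd3g and Cd4 were under the limit in T2, at 3.37, 1.15 and 2.16, and Cd3g and Cd4 were lowest there. The single T cell markers given for T2 and M4 were named after their values were seen. In M4 Thy1 was at 9.33 and Cd3d at 8.02. Whether T cells were present in M4 and T2, and their part in the values there, was not tested.

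Granulocyte markers, of which 10 of 11 were on the array, had summed log2 intensities of 9.68 to 14.28 in M1 to M4 and 7.75 to 14.45 in T1 to T5, with T2 the highest and M3 and M2 next. All 8 tested granulocyte markers had lower means in T1 to T5, with a median difference of -2.26 and 0 called by limma. Macrophage markers ran from 14.25 to 16.01 and from 14.85 to 15.60, and 10 of 12 had lower means in T1 to T5, with a median difference of -0.23 and 0 called. Pan-B markers, a list that includes Vpreb3, ran from 15.91 to 16.44 and from 16.13 to 16.66, with M2 at 16.42. Such sums rest mostly on the brightest genes. The mean log2 value over the 9 tested pan-B markers was lowest in T2, at 10.72, and 11.44 to 12.70 in the other lymphomas. Proliferation markers, again summed, ran from 16.16 to 17.01 and from 16.92 to 17.15. Natural killer markers were low, at 5.24 to 8.54, and plasma cell markers ran from 12.44 to 13.65. Their part in the levels of the set was not tested.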

How the data were processed

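RNA of 9 lymphomas (4 Eμ-Myc, 5 Eμ-Myc;Eµ-TTP-1) was measured with 1 array each. The authors deposited linear intensity values, from 1.56 to 123104.7, made with GCRMA per the submitters' processing notes, no version given. The method subtracts a sequence-based background, which leaves low values poorly determined. Scanner files were not analysed here.

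Intensities were taken to log2 without a pseudocount. The platform annotation named 1 gene for 34945 of 45037 probe sets, several for 932 and none for 9160; 34741 matched the reference table (GRCm38.p6). Where a gene had several probe sets, the one of highest mean was taken. The 10172 genes over log2 4 in at least 4 of 9 arrays were tested in R 4.3.3 using limma 3.58.1 (lmFit, eBayes, two-sided, Benjamini-Hochberg, threshold 0.05, all 9 arrays, no covariates), checked on simulated data, beside exact permutation over 126 splits. Replicates carry the labels' word biological only, so p-values measure the spread between these samples.

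The genes, lists and tests were chosen with earlier results of these data known. Named were the 8 genes, 32 partner genes fixed by name (of which 29 were analysed here), chromosome neighbours, and for each tested gene with an SD over 1 the 3 nearest genes in pattern. The printed motifs were kept from a wider search of these promoters. Alternatives comprised dropping the filter, raising it to log2 6, other treatments of probe sets, 2 normalisations, an intensity trend, array weights, a pseudocount of 16, the replicate block, and each array left out. Same-numbered arrays correlated at -0.09, 0.09, -0.003 and 0.20 in their deviations, so the numbers were not taken as pairs.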

Additional observations from a re-analysis of the deposited data

Results flagged for a closer look

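By a gap test within each genotype, 1 lymphoma lay apart in 19 of 116 comparisons, where chance gives about 1 in 20, or 5.8. That chance value does not hold for genes picked by their likeness or by name, such as Tnfsf10. Of the 19, 7 came from 24 comparisons of the recombination and pre-B receptor genes, 3 of them from probe sets of Dntt. These 24 were not independent, since probe sets of the same gene were counted separately. The rate of 1 in 20 is therefore no guide to the 7. By lymphoma, 6 of the 19 were in T2, 5 in M4, 3 in M2, 3 in T4 and 2 in M1.

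Dntt stood out in T4 on all 3 of its probe sets, with 9.05 (others of the group 1.88 to 1.95), 8.59 (1.91 to 1.98) and 3.99 (2.36 to 2.48). In M4, Igll1 read 11.00 (others 5.84 to 6.14), the probe set shared by Vpreb1 and Vpreb2 read 8.20 (4.09 to 4.33), Top3b beside Vpreb1 read 10.10 (8.56 to 8.63) and Tnfsf10 read 5.25 (3.04 to 3.35). The background probe set of Igll1 read 3.19 in M1 (2.23 to 2.37) and 2.86 in T2 (2.19 to 2.26), both under the limit of 4, and Cd3e read 3.43 in M4 (2.83 to 2.85), also under it.

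In T2, Cish read 9.03 (others 2.21 to 2.29), Spi1 11.99 (10.01 to 10.55), Slc25a1 11.73 (9.28 to 9.78), Lef1 4.90 (10.84 to 12.39) and Pax5 8.49, where the other 4 of the group had the same 8.66. In M2, Lef1 read 2.06 (10.38 to 11.00), Sox4 9.41 (13.39 to 14.16) and Erg 3.90 (4.70 to 4.79). Capsl beside Il7r read 8.49 in M1 (3.43 to 4.08).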

How the results depend on the processing

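The count of recombination and pre-B receptor genes called between genotypes was 0 under each of the 20 alternatives run. Over all genes the count was 0 except without M3, where 8 genes were called, and without M4, where 1 was. At an unadjusted p under 0.05 the genes numbered 577 in the reported fit and 454 to 793 under the alternatives that tested genes. With all probe sets tested, 1107 of 18464 probe sets were under 0.05. Rag1, Rag2 and Vpreb3 kept their direction under all 20. For these genes the changes of filter, the other treatments of probe sets and the intensity trend left the difference itself unchanged. Those alternatives could therefore not have altered its direction. Igll1 turned to -0.14 without T2, with a range of -0.14 to 2.75 over arrays left out, and Il7r to -0.80 without M2, with a range of -0.80 to 1.68. Rag1 ran from 0.53 to 4.44 over arrays left out and reached 4.59 with array weights. With the replicate numbers as a block, which leaves out T5 because it has no partner, the differences were 2.49 for Rag1, 2.60 for Rag2, 2.37 for Igll1, 1.47 for Il7r and 0.72 for Vpreb3, the same as without T5 and without the block, and the block changed no call; own-numbered arrays were the best match for 2 of 4 numbers. Without the probe sets that can hybridise to other transcripts Igll1 did not pass the filter, so that alternative gave it no value. The cause of these shifts was not tested. Signal over background limits Dntt and Vpreb1, which were near background in most arrays.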
